A study of Rattus norvegicus with 16 samples.

Results

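The RNA stretches of untreated rat cortical neurons that were protected by protein from a single-strand-cutting RNase were compared with those protected from a double-strand-cutting RNase. They are protein-protected sites (PPS), regions where the coverage of digested RNA was higher with protein in place than after its removal. The members were the PPS of the 2 control lists on the plus strands of chromosomes 11, 12, 16, 17, 18, 19 and 20 that carried peaks of 1 RNase only. There were 15892 of them, out of 163572 PPS in both control lists and 329742 in all 4 lists of the study. The 7 chromosome strands had been selected in earlier work on these lists as those on which no block of peaks was copied from another list or followed the opposite strand.

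The cells were primary cortical neurons of embryonic day 18 Sprague–Dawley rats, kept in culture for 15 or 21 days. The control group, replicates 2 and 3, received no N-methyl-D-aspartate (NMDA), whereas the comparison group, also replicates 2 and 3, received 10 µM NMDA, an agonist of a class of glutamate receptors, for 4 or 24 hours. Which age and duration belong to these libraries is not settled by the labels. The labels also describe nuclei purified from 3 g of tissue, and it is equally unclear if the RNA came from nuclei or from whole cells. No label says that the replicates were separate cultures, and the spread between lists may be technical. Cell identity could not be checked against marker genes, because no gene models of the build of the lists were used.

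In protein interaction profile sequencing, RNA crosslinked to protein is digested by an RNase either before or after the protein is removed. RNase ONE (ssRNase) cuts unpaired RNA and RNase V1 (dsRNase) cuts paired RNA, so the pair of enzymes reaches RNA in both states of folding. A stretch that a protein covers resists the enzyme, and the digest made without protein serves to set aside stretches that resist because of their folding alone. RNA-binding proteins of neurons that act on splicing, transport and local translation leave such footprints, and some favour unpaired RNA while others bind helices.

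Each replicate gave 4 libraries, from 2 RNases with and without protein, and 1 list of PPS. A list names the RNase of every peak, so it yields 1 ssRNase set and 1 dsRNase set, and the 2 control lists yield 4 sets. Every PPS with 1 RNase was a single peak. PPS with peaks of both enzymes, 1184 in replicate 2 (13.5% of its PPS on these strands) and 604 in replicate 3 (6.78%), were set aside. The lists hold no read counts, so sequencing depth is unknown, and a difference in the number of PPS cannot be told apart from a difference in depth between the libraries of the RNases. With 2 sets a side, treated as unpaired, the smallest two-sided exact permutation p is 0.333. No comparison of 4 set values could pass 0.05. The exact tests do not use that the 2 sets of a list share a replicate.

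The dsRNase set of replicate 3 stood apart from the others. Peaks carry running numbers, of which the lists keep only some. On the 7 strands this set kept 3.00% to 3.41% of its running numbers per chromosome, against 4.61% to 8.95% on the other plus strands of the same list. Peaks at a score of 5.4, near the bottom of the scale, were 39.8% to 46.8% of its peaks per chromosome, and 19.3% to 28.3% on its other plus strands. Its PPS were also the shortest and lowest scoring of the 4 sets, and its part in the RNase differences was not tested beyond leaving it out. Copying between the control sets was not seen: at most 1 single peak was identical in position and score in any pair of them. The highest number shared with an NMDA set was 9, or 0.204% of the smaller set, between the dsRNase sets of replicate 3.

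More sites were protected from the dsRNase than from the ssRNase on these strands. Replicate 2 had 3247 ssRNase and 4346 dsRNase PPS, and replicate 3 had 3483 and 4816. Both dsRNase sets therefore lay above both ssRNase sets. The mean was 4581 ± 332 (SD, n = 2) for dsRNase and 3365 ± 167 for ssRNase, a ratio of 1.36 (two-sided exact permutation p = 0.333, the smallest possible). Among PPS scoring above the median of their list the means were 1414 and 1270.5, and the sets overlapped (two-sided exact permutation p = 1). Over all chromosomes and strands as deposited, where blocks are copied or off-strand, the order turned, with means of 35591 for dsRNase and 39545 for ssRNase and overlapping sets (two-sided exact permutation p = 1). On the 7 strands the ssRNase share of single-RNase PPS was nearly the same in the lists, 42.8% in replicate 2 and 42.0% in replicate 3.

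The excess of dsRNase sites was present in both lists on 6 of the 7 chromosomes. Chromosome 18 was the exception, with 552 ssRNase against 547 dsRNase PPS in replicate 2, but 504 against 698 in replicate 3. Chromosome 17 had the lowest ssRNase share of replicate 2, 34.8%, with 457 ssRNase and 856 dsRNase PPS. Its share in replicate 3, 37.6%, was above only that of chromosome 16, 36.5%. Chromosome 19 was the most even chromosome when both lists are considered, with ssRNase shares of 49.3% and 46.0%. Among PPS scoring above the median of their list, dsRNase sites outnumbered ssRNase sites in both lists on only 2 of the 7 chromosomes.

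**Figure D1:**
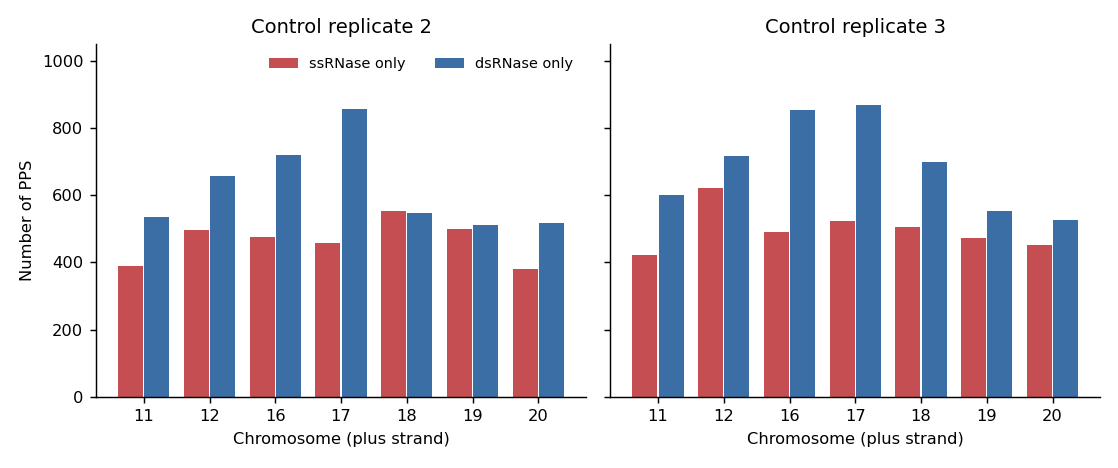
Number of PPS with ssRNase peaks only (red) and dsRNase peaks only (blue) on the plus strand of each chromosome, for control replicate 2 (left) and control replicate 3 (right); each bar is 1 count without an error. The dsRNase bar is the taller one everywhere except on chromosome 18 in replicate 2 (552 against 547).

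Sites protected from the ssRNase were longer on these strands. Their median length was 57 bp in replicate 2 and 54 bp in replicate 3, against 50 and 40 bp for the dsRNase. Neither dsRNase set reached the median of an ssRNase set. The means of these medians were 55.5 ± 2.12 bp and 45 ± 7.07 bp (SD, n = 2), a difference of 10.5 bp (two-sided exact permutation p = 0.333). Without the dsRNase set of replicate 3 the difference was 5.5 bp, and without that of replicate 2 it was 15.5 bp. Over all chromosomes and strands as deposited it was 1.5 bp, and the sets overlapped (two-sided exact permutation p = 1). The ssRNase median was the longer one in 14 of 14 pairs of chromosome and list, by 6 to 10 bp in replicate 2 and by 13 to 18 bp in replicate 3.

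The lengths of ssRNase sites most often fell between 50 and 60 bp, which held 20.6% of the set of replicate 2 and 21.9% of that of replicate 3. The most common class of dsRNase sites was 40 to 50 bp in replicate 2 (24.0%) and 30 to 40 bp in replicate 3 (29.4%). Reads were 50 bases long, close to all of these classes. Under 20 bp the enzymes differed little, since such PPS made up 4.00% and 4.36% of the ssRNase sets and 4.03% and 5.21% of the dsRNase sets. From 20 to 29 bp the shares were 5.91% and 7.90% for ssRNase and 6.74% and 15.1% for dsRNase, so the dsRNase set of replicate 3 stood out. At the long end the enzymes differed in both lists. PPS of 100 bp or longer were 9.39% and 6.72% of the ssRNase sets but 3.43% and 1.08% of the dsRNase sets (two-sided exact permutation p = 0.333), so that all 4 values separated by enzyme.

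Read the other way, the ssRNase share of sites depended on length. It was lowest among PPS of 30 to 39 bp, at 30.1% in replicate 2 and 21.4% in replicate 3. It passed 50% at 70 to 79 bp in replicate 2 (52.8%) and at 50 to 59 bp in replicate 3 (54.8%). From 100 to 149 bp it was 66.1% and 83.1%, and at 150 bp or more it was 73.0% (54 of the ssRNase and 20 of the dsRNase) and 71.9% (23 and 9). The longest single sites did not follow this order: the maximum was 268 and 371 bp for the ssRNase and 292 and 407 bp for the dsRNase.

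**Figure D2:**
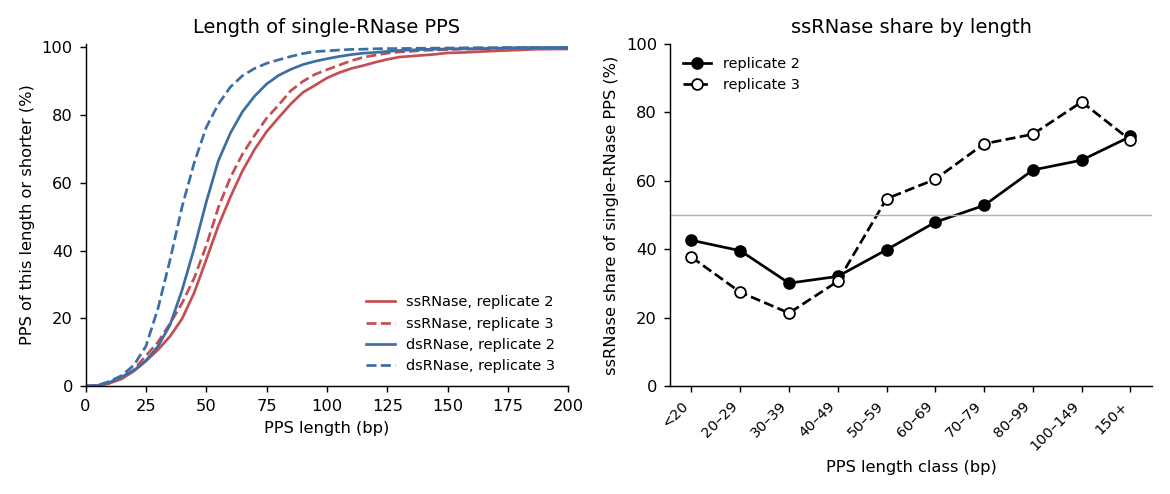
Left, cumulative percentage of PPS against length in bp for the ssRNase (red) and dsRNase (blue) sets of control replicate 2 (solid) and replicate 3 (dashed); the red curves lie to the right of the blue ones, with medians of 57 and 54 bp against 50 and 40 bp. Right, percentage of single-RNase PPS that were ssRNase in each length class, by replicate, with a line at 50%; the share runs from 30.1% and 21.4% at 30 to 39 bp to 73.0% and 71.9% at 150 bp or more.

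The higher number and smaller length of dsRNase sites nearly offset each other in the length of genome covered. The ssRNase sets covered 201908 and 201634 bp, and the dsRNase sets 225505 and 204026 bp. These values are ordered by enzyme, but the dsRNase set of replicate 3 exceeded the ssRNase sets by little. The mean difference, ssRNase minus dsRNase, was -12994.5 bp (two-sided exact permutation p = 0.333). It was -2255 bp without the dsRNase set of replicate 2. Among PPS scoring above their list's median the ssRNase covered more on average, 89568.5 against 79116 bp, but the sets overlapped.

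Median scores did not separate the enzymes, while the share of PPS scoring 10 or more did. The score is the submitters' own and has no stated scale. Its median was 6.82 in both ssRNase sets and in the dsRNase set of replicate 2, and 5.86 in the dsRNase set of replicate 3 (two-sided exact permutation p = 1). The upper quartile was 8.35 in the same 3 sets and 6.82 in the dsRNase set of replicate 3. By these measures only the dsRNase set of replicate 3 was lower. PPS scoring 10 or more were 12.4% and 12.9% of the ssRNase sets and 10.9% and 5.02% of the dsRNase sets, so both dsRNase sets lay below both ssRNase sets (two-sided exact permutation p = 0.333). A higher cut did not keep this order. PPS scoring 15 or more numbered 104 of 3247 and 81 of 3483 for the ssRNase, and 185 of 4346 and 51 of 4816 for the dsRNase. Their share was highest in the dsRNase set of replicate 2 and lowest in that of replicate 3. In every set longer PPS tended to score higher, with a Spearman correlation across PPS of 0.341 and 0.302 for the ssRNase and 0.336 and 0.259 for the dsRNase. These PPS share libraries and are not independent replicates. Among PPS at the single score of 5.4, the ssRNase median length still exceeded the dsRNase one, by 9 bp on average.

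On these strands, sites recurred between the lists more often with the same enzyme than with the other. Of the ssRNase PPS, 23.8% of replicate 2 overlapped an ssRNase PPS of replicate 3 by at least 1 bp, and 22.1% of replicate 3 overlapped one of replicate 2. For dsRNase the shares were 20.5% and 18.7%. Overlap with the other enzyme's PPS of the other list was lower, at 10.6% and 11.2% for ssRNase sites and 9.13% and 7.25% for dsRNase sites. The targets are similar in extent, between 201634 and 225505 bp. PPS with peaks of both enzymes are absent from these sets, which can lower overlap with the other enzyme by construction. With them counted on both sides, same-enzyme overlap averaged 29.8% for ssRNase and 28.5% for dsRNase, and other-enzyme overlap 19.9%. The ratio of same-enzyme to other-enzyme overlap was then 1.47, against 2.23 without them. No comparison with a test is possible, since 2 lists make 1 pair. The 7 strands had been selected partly because peak positions matched those of their own strand, so this overlap is not independent of the selection. Over all chromosomes and strands as deposited, where blocks are copied or off-strand, same-enzyme minus other-enzyme overlap was -1.87 percentage points. The larger share met no PPS of any kind in the other list, PPS of both enzymes included: 62.2% and 59.9% of ssRNase sites and 66.9% and 65.7% of dsRNase sites.

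ssRNase sites overlapped each other in slightly larger shares than dsRNase sites did, by 3.34 percentage points on average. This order changed with the overlap rule. With every PPS set to 50 bp around its midpoint the shares were 20.7% for ssRNase and 20.2% for dsRNase, and with the middle base required to lie inside the other PPS they were 16.2% and 16.2%. The excess of same-enzyme over other-enzyme overlap was present under both rules, at 10.9 and 9.78 percentage points, against 11.7 as first counted.

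Recurrence was higher at higher scores for both enzymes. Below a score of 5.5, the ssRNase sites recurring with the same enzyme were 18.6% in replicate 2 and 13.0% in replicate 3, and the dsRNase sites 15.3% and 11.5%. Between 10 and 15 the shares were 34.8% and 32.4% for the ssRNase and 28.1% and 41.9% for the dsRNase. In each of the 4 sets the share was thus higher in the upper range. Overlap with the other enzyme was also higher in the upper range, by fewer percentage points. Between the same ranges it went from 8.67% to 11.7% and from 7.97% to 13.5% in the ssRNase sets of replicates 2 and 3. In the dsRNase sets it went from 6.01% to 13.9% and from 6.63% to 7.33%, so in the dsRNase set of replicate 2 it grew by a larger factor than same-enzyme overlap did. Longer sites recurred more often too: from PPS under 30 bp to those of 100 bp or more, same-enzyme recurrence went from 15.2% to 40.3% in the ssRNase set of replicate 2 and from 17.5% to 42.3% in the dsRNase set of that list.

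**Figure D3:**
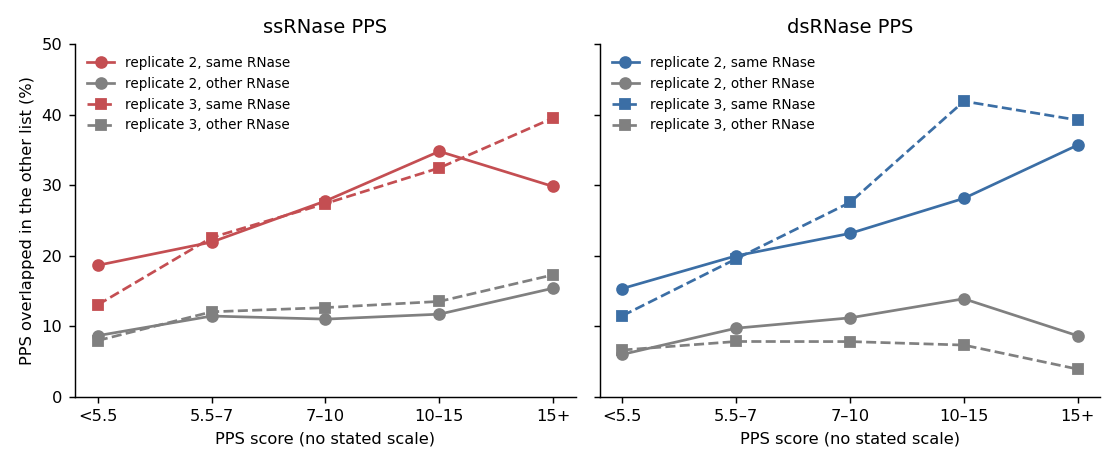
Percentage of PPS overlapped by at least 1 bp by a PPS of the same RNase (colour) or of the other RNase (grey) in the other control list, by score class, for ssRNase (left) and dsRNase (right) and for replicate 2 (circles, solid) and replicate 3 (squares, dashed). Same-RNase overlap is above other-RNase overlap in every class, for example 34.8% in the ssRNase set of replicate 2 between scores of 10 and 15.

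Where sites recurred, the ends of dsRNase sites lay closer together, but these sites were also shorter. In the 915 overlapping pairs of dsRNase PPS the starts lay within 5 bp of each other in 36.1%, against 22.0% of the 799 ssRNase pairs. The ends of 37.8% of dsRNase pairs lay as close. Median lengths in replicates 2 and 3 were 52 and 44 bp in dsRNase pairs and 66 and 58 bp in ssRNase pairs. Shorter sites that overlap leave less room between their ends, and the part of length was not tested. Pairs of an ssRNase PPS of replicate 2 with a dsRNase PPS of replicate 3 had starts within 5 bp in 28.5%. For an ssRNase PPS of replicate 3 with a dsRNase PPS of replicate 2 the share was 17.2%. The median shared part of the joint length was 0.574 for dsRNase and 0.456 for ssRNase pairs. Few pairs were identical in both ends, 7 and 2 of them, so the recurring sites were separate calls. Where enzymes crossed, the dsRNase site lay wholly inside the ssRNase site in 46.2% of 355 pairs of an ssRNase PPS of replicate 2 with a dsRNase PPS of replicate 3, and in 27.4% of 402 pairs of the opposite kind. Such containment was not particular to crossed pairs. The site of replicate 3 lay inside that of replicate 2 in 36.8% of dsRNase pairs and 22.0% of ssRNase pairs.

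The sites found by 1 enzyme in both lists with the highest scores are described next. They were picked by score and do not stand for all recurring pairs. Positions are 1-based on rn6, and no gene annotation of that build was used. The ssRNase PPS at chr19:25063100-25063270, plus strand, had a score of 15.39 and a length of 171 bp in replicate 2, and its partner of 97 bp in replicate 3 scored 15.9 and lay wholly inside it. At chr18:64041884-64041954 the ssRNase PPS scored 14.22 in replicate 2 (71 bp) and 13.6 in replicate 3 (54 bp), and the nearest dsRNase PPS was 49844 and 48007 bp away. The third, chr16:21078255-21078400, scored 13.5 and 15.64, and in replicate 2 a dsRNase PPS lay only 47 bp from it. In all 3 the site of replicate 3 was the shorter one, contained in that of replicate 2. The longest ssRNase site of both lists, chr18:56298225-56298461, measured 237 and 223 bp and scored 13.5 in each.

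For dsRNase the highest scoring recurring site was also the longest, at chr17:7797190-7797364, with scores of 23.6 and 19.37 and lengths of 175 and 166 bp. Its starts differed by 7 bp and its ends by 16 bp between lists. At chr12:22467850-22467997 the scores were 19.37 and 17.65 with lengths of 148 and 140 bp. At chr20:6218179-6218250 they were 17.35 and 16.33 with lengths of 72 and 70 bp. Unlike the 3 ssRNase sites, these 3 had partners of nearly their own length. PPS of either enzyme overlapped the chr17 and chr20 sites in both NMDA lists and the chr12 site in 1 of them.

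Within a list, sites clustered with those of their own enzyme. The median gap from an ssRNase PPS to the nearest other ssRNase PPS was 660 bp in replicate 2 and 1351 bp in replicate 3, and to the nearest dsRNase PPS 1452 and 1891 bp. From a dsRNase PPS the gaps were 1261 and 1566 bp to its own kind and 4509 and 4709 bp to the ssRNase. The nearest neighbour had the same enzyme for 59.6% and 55.3% of ssRNase sites and for 68.8% and 65.6% of dsRNase sites. PPS of different enzymes that touch are joined in the lists and are absent from these sets, which lengthens the gaps to the other enzyme. The gaps also depend on the larger number of dsRNase sites. The gap to the other enzyme exceeded that to the same enzyme by 666 bp for the ssRNase and 3196 bp for the dsRNase on average, and by 1618 and 2254 bp after even thinning to equal numbers.

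Placement along the chromosomes was more alike within than between enzymes at scales of 10 kb to 1 Mb. Over 10 kb bins that held any PPS of the 4 sets, the numbers of ssRNase PPS in the lists correlated with r = 0.542 across 4190 bins, and those of dsRNase PPS with r = 0.385. Between ssRNase of one list and dsRNase of the other, r was 0.224 and 0.226. The same-enzyme r was above both cross-enzyme ones on 7 of 7 chromosomes for each enzyme at 10 kb, 100 kb and 1 Mb. At 1 Mb r was 0.868 for ssRNase and 0.882 for dsRNase, and 0.761 and 0.781 between enzymes, so much of the placement at that scale was shared. At 1 kb this held on 7 chromosomes for the ssRNase and on 5 for the dsRNase, whose r was -0.0152 over all 8744 bins. Bins without a PPS in any set, and PPS with peaks of both enzymes, were left out of all these values. Bins of a chromosome are not independent, and the 7 strands had been selected partly because peak positions matched those of their own strand.

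**Figure D4:**
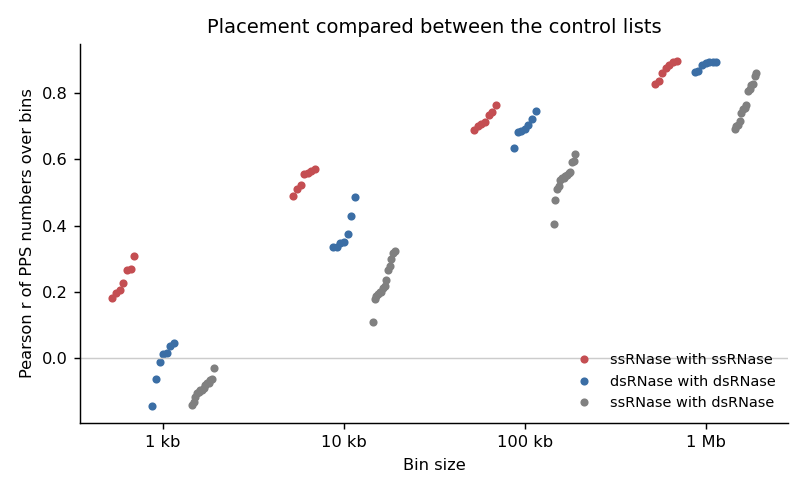
Pearson correlation of PPS numbers between control replicate 2 and control replicate 3 over bins of 1 kb, 10 kb, 100 kb and 1 Mb, with 1 point per chromosome (and, for ssRNase with dsRNase in grey, per combination of lists). At 10 kb the ssRNase points lie between 0.489 and 0.571, the dsRNase points between 0.336 and 0.487 and the grey points between 0.109 and 0.323.

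More windows held a dsRNase site than an ssRNase site. Of 1540 windows of 100 kb that held a single-RNase PPS, 56.0% and 65.8% held an ssRNase PPS in replicates 2 and 3, and 68.9% and 78.4% a dsRNase PPS. The mean shares were 60.9% ± 6.98 and 73.7% ± 6.75 (SD, n = 2), a difference of 12.8 percentage points (two-sided exact permutation p = 0.333). All 4 values separated by enzyme, but the dsRNase sets are larger. At equal numbers the sets overlapped: with all thinned evenly to the size of the smallest, the means were 63.1% for ssRNase and 69.6% for dsRNase, and with the highest scoring PPS 63.3% and 67.8% (two-sided exact permutation p = 0.667 for each). With all PPS, the difference was 7.82 points without the ssRNase set of replicate 2. Counting single-RNase PPS alone, sites of both enzymes occurred in both lists in 558 windows. ssRNase sites occurred in both lists with no dsRNase site in 36, and dsRNase sites in both lists with no ssRNase site in 131. The fullest 10% of occupied windows held 37.8% and 33.8% of ssRNase PPS and 38.5% and 38.3% of dsRNase PPS. Both dsRNase values were thus above both ssRNase values (two-sided exact permutation p = 0.333). Thinned evenly to equal numbers, the means were close, at 35.6% for ssRNase and 36.2% for dsRNase.

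The share of each set's PPS that fell in a window was then compared between enzymes over the 623 windows with at least 8 PPS, on the scale log2(PPS per 10000 PPS of the set + 0.5). By limma with Benjamini-Hochberg adjustment at 0.05, no window was higher in ssRNase (0% of 623) and 1 was higher in dsRNase (0.161%). At an unadjusted p under 0.05, limma called 151 windows (24.2%), 70 of them higher in ssRNase and 81 in dsRNase. Both ssRNase sets lay above both dsRNase sets in 178 windows (28.6%), and both dsRNase sets above both ssRNase sets in 175 (28.1%). Together these are 56.7% of the windows tested. With the replicate number as a block, limma called 14 windows, 5 higher in ssRNase and 9 in dsRNase. Leaving out 1 set raised the count to 99 without the ssRNase set of replicate 2, to 146 without that of replicate 3, and to 16 without either dsRNase set. In these fits the enzyme left with 1 set is assumed to vary as the other does, so the number of windows that differ is poorly fixed while single windows can be described.

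**Figure D5:**
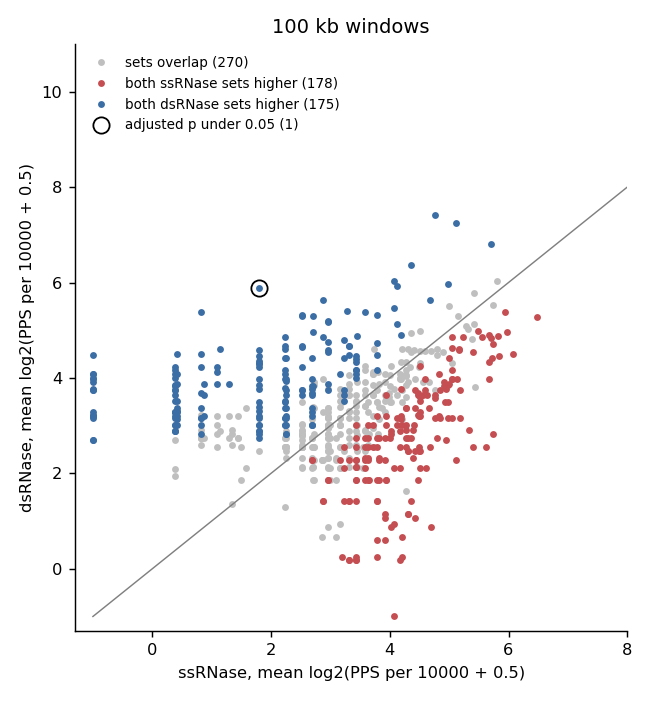
Each point is one of the 623 windows of 100 kb, placed by its mean over both lists of log2(PPS per 10000 PPS + 0.5) for ssRNase (x axis) and dsRNase (y axis), with the line of equality. Windows in which both sets of one enzyme exceed both of the other are coloured (178 red, 175 blue), and the ring marks the 1 window past an adjusted p of 0.05.

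The window past the threshold was on chromosome 12 from 27200001 to 27300000. It held 1 ssRNase PPS in each list and 27 dsRNase PPS in each list. Its log2 difference, ssRNase minus dsRNase, was -4.10 ± 0.42 (SE), with a limma adjusted p of 0.0388 and of 0.00483 with the replicate block. Over 19 alternatives the adjusted p ran from 1.18e-13 to 0.319, and it was under 0.05 in 14. In raw numbers the NMDA lists showed the same order there, with 1 and 2 ssRNase against 17 and 28 dsRNase PPS.

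The windows with the largest differences that missed the threshold had no single-RNase PPS of one enzyme. On chromosome 12 from 4700001 to 4800000 there were 11 and 9 dsRNase PPS and none of the ssRNase (limma adjusted p = 0.0729, over its alternatives 1.6e-05 to 0.173). From 78900001 to 79000000 on chromosome 11 there were 8 and 7 dsRNase PPS and none of the ssRNase (limma adjusted p = 0.0729, alternatives 0.000385 to 0.167). In the other direction, the window on chromosome 17 from 23600001 to 23700000 held 5 and 6 ssRNase PPS and no dsRNase PPS (limma adjusted p = 0.0729, alternatives 0.00643 to 0.319). The numbers of PPS in these windows are small. The windows met the floor of 8 PPS through 1 enzyme alone. With no PPS of the other enzyme, the size of the log2 difference depends on the constant added before taking logs. On chromosome 17 it was 6.05 with a constant of 0.25, 5.07 with 0.5 and 4.11 with 1. Both sets of the absent enzyme share 1 value and add no spread to the limma fit. The rank and limma p of these windows are thus not independent of the filter and the constant. PPS with peaks of both enzymes are not counted in these windows. With those PPS on both sides, the log2 difference was 2.76 instead of 5.07 on chromosome 17, and -4.05 instead of -5.48 on chromosome 12. In raw numbers the NMDA lists had dsRNase above ssRNase at both dsRNase windows, with 8 and 6 against 0 and 1 on chromosome 12 and 9 and 7 against 0 and 3 on chromosome 11. At the ssRNase window the raw numbers were 1 and 1 ssRNase and 3 and 1 dsRNase PPS. On these strands NMDA replicate 2 holds 1043 ssRNase and 7256 dsRNase PPS, and NMDA replicate 3 holds 3536 and 4409. As shares of their sets, the ssRNase numbers were thus the larger ones in both NMDA lists, but each rests on 1 PPS.

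Next in size on the ssRNase side was chromosome 18 from 53700001 to 53800000, with 7 and 5 ssRNase PPS against 0 and 1 of the dsRNase (limma adjusted p = 0.115, alternatives 0.0259 to 0.389). Chromosome 19 from 10500001 to 10600000 had 9 and 4 against 1 and 0 (limma adjusted p = 0.13, alternatives 0.0123 to 0.411). These too rest on few sites, and with 0 PPS in a dsRNase set their log2 differences also depend on the added constant.

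The windows richest in sites differed by enzyme. The 3 with most dsRNase PPS lay close together on chromosome 17. From 75300001 to 75400000 there were 87 and 69 dsRNase against 9 and 9 ssRNase PPS, a log2 difference, ssRNase minus dsRNase, of -2.64 (limma adjusted p = 0.0521, with the replicate block 0.0023, alternatives 3.53e-23 to 0.338). The next window, from 75400001, had 70 and 68 against 12 and 11 (limma adjusted p = 0.0637, with the block 0.00588, alternatives 1.29e-14 to 0.453). The one from 75600001 had 48 and 55 against 19 and 16 (limma adjusted p = 0.13, alternatives 0.000861 to 0.563). So the first pair passed the threshold only with the block or other alternatives, and in all 3 windows no ssRNase set came near a dsRNase set.

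The 3 windows with most ssRNase PPS lay on different chromosomes and were less one-sided. Chromosome 19 from 25000001 to 25100000, which contains the highest scoring recurring ssRNase site given above, had 44 and 20 ssRNase against 16 and 19 dsRNase PPS. Chromosome 18 from 27100001 to 27200000 had 36 and 14 against 6 and 17, so its raw numbers overlapped between enzymes. Chromosome 16 from 21000001 to 21100000, which contains another named ssRNase site, had 23 and 19 against 15 and 13. Scaled to 10000 PPS of the set, both ssRNase sets were above both dsRNase sets in all 3, with log2 differences, ssRNase minus dsRNase, of 1.2, 1.57 and 1.01 and limma adjusted p of 0.197, 0.204 and 0.167. Over the alternatives these ran from 1.06e-07 to 0.645, from 9.78e-08 to 0.673 and from 0.00745 to 0.54.

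The differences between enzymes were set beside those of the NMDA lists on the same strands. NMDA replicate 2 had 1043 ssRNase and 7256 dsRNase PPS and NMDA replicate 3 had 3536 and 4409, so dsRNase sites were more numerous in all 4 lists. Median lengths in the NMDA lists were 51 and 63 bp for ssRNase and 49 and 40 bp for dsRNase, so ssRNase sites were the longer ones in all 4 lists as well. The excess of the ssRNase median over the dsRNase median came to 7 and 14 bp without NMDA and to 2 and 23 bp with it (two-sided exact permutation p = 1). For the log2 ratio of numbers p was 1 too, and for the difference in median score it was 0.667, where 0.333 is the smallest possible. The NMDA lists differed from each other by more than the control lists did in all 3 measures.

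Both control lists overlapped some NMDA sets more than they overlapped each other. The ssRNase PPS of control replicate 2 overlapped an ssRNase PPS of NMDA replicate 3 in 34.0%, compared with 23.8% for control replicate 3, although the targets are of like size, 3536 and 3483 PPS. The dsRNase PPS of control replicate 2 overlapped a dsRNase PPS of NMDA replicate 2 in 40.4%, a set of 7256, compared with 20.5% for control replicate 3, a set of 4816. Control replicate 3 showed the same order, with 26.0% for ssRNase in NMDA replicate 3 against 22.1%, and 25.8% for dsRNase in NMDA replicate 2 against 18.7%. The same-enzyme pattern was not general: control ssRNase PPS overlapped the dsRNase set of NMDA replicate 2 in 18.7% and 19.2%, and its much smaller ssRNase set, of 1043 PPS, in 10.1% and 7.98%. The overlap between the control lists is therefore not the highest that 2 lists of this study reached.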

How the data were processed

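Per the submitters' processing notes, cutadapt 1.2.1, TopHat2 2.0.10 and the rn6 build were used, in no stated role. The labels tie the PPS to CSAR, at a 5% false discovery rate. The deposited lists give positions, peak names with their RNase, and 1 score per peak, of unstated scale. Peaks of a list were split by RNase. Exact permutation tests, two-sided, compared values of the 4 control sets, and windows with limma 3.58.1 in R 4.3.3 (lmFit, eBayes with trend, PPS assigned by midpoint). Other steps used pandas 2.3.3, numpy 2.4.6 and scipy 1.17.1 under Python 3.11.15. Gaps are edge to edge, and overlap needed 1 bp on the same strand.

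The members, strands and comparisons were chosen with earlier results of these data known. Named windows were, per enzyme, up to 3 past the threshold with both sets separated, filled up to 3 by those of largest difference, and the 3 with most PPS. Named PPS were the 3 recurring ones with the highest lower score and the longest. Replicate numbers pair the RNases, since per the labels each sample was divided into the 4 libraries of a list. The deviations of paired sets correlated with r = -0.0746 over 623 windows, which does not bear on pairing in the numbers, lengths or scores of whole sets. A planned comparison of peaks per PPS had no content, because every member is a single peak. No sequence is printed, since no genome of the build was at hand. Alternatives are given in the closing section.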

Additional observations from a re-analysis of the deposited data

How the results depend on the processing

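Of 109 alternatives to the main comparisons, 9 reversed the direction, 35 moved an untested value beyond its spread or a count by over 1.5 times, and 65 did neither. The spread was the SD between the 2 lists, but over all 4 sets, enzymes included, for same-enzyme minus other-enzyme overlap. For the values given exact tests, which could not reach 0.05, the tally looks at direction alone, so large moves are among the 65. Using all chromosomes and strands as deposited, copied and off-strand blocks included, turned the ssRNase minus dsRNase difference in number to 3954 PPS, in covered length to 315400 bp and in median score to -0.005, and left 1.5 bp of the difference in median length. It also turned same-enzyme minus other-enzyme overlap to -1.87 points and the ssRNase minus dsRNase difference in same-enzyme overlap to -0.55 points. Keeping PPS above the median score of the list left -143.5 of the -1216 PPS in number, turned covered length to 10452 bp and the NMDA minus control change in length difference to -2.25 bp, and gave 2 chromosomes with more dsRNase sites in both lists. PPS of both enzymes on both sides turned the NMDA minus control change in score difference to 0.3. The middle-base rule turned the ssRNase minus dsRNase overlap difference to -0.083 points. The other values of that difference were 0.503 (at least 50% of the shorter PPS), 0.46 (50 bp width), 4.19 (highest scoring, equal numbers), 1.67 (above median), 1.26 (both enzymes) and 7.71 (evenly thinned). Same-enzyme minus other-enzyme overlap was 10.7, 9.78 (middle base), 10.2 (above median), 9.28 (both enzymes) and 10.2 (evenly thinned). The other-minus-same median gap, 666 bp for ssRNase and 3196 bp for dsRNase, became 1850 and 2446 bp (highest scoring, equal numbers), 7510 and 14569 bp (above median) and 1618 and 2254 bp (evenly thinned). The number of windows called by limma was 36 at 50 kb, 11 at 200 kb, 5 with a pseudocount of 1, 0 with at least 4 PPS (193 unadjusted), 14 with at least 16, 0 with at least 1 (287 unadjusted), 14 above the median score, 4 by covered bases, 15 without trend, 4 with robust variance, 14 with the replicate block and 12 evenly thinned. Scaling by the median window ratio gave 0 (136 unadjusted) and moved the median log2 difference from 0.04 to -0.13. Leaving out 1 set gave 16 to 146. Even thinning, the score of 5.4, recurring PPS and the limit of 30 PPS per window were added after seeing the data. Read depth, which is unknown, limits every comparison of numbers.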
